A study of Mus musculus with 15 samples.

Results

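The voltage-gated calcium and sodium channel genes of the newborn mouse pituitary were taken as all genes whose symbol in the array annotation begins with Cacna, Cacnb or Cacng, or has the form Scn, a number, and a or b. By this rule 35 of the 18193 genes measured are members, 24 for calcium channels and 11 for sodium channels. They are covered by 85 probe sets, and 26 members have more than 1, in which case the one brightest on average across the 15 arrays stands for the gene. Cacna1i, Cacnb3 and Scn4a belong to the same families and were not analysed here.

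Voltage-gated channels open when the membrane depolarises. A pore-forming alpha subunit carries the current, and accessory subunits set how much channel reaches the membrane and how it opens and closes. Endocrine cells of the anterior pituitary fire spontaneous action potentials, and calcium entry through L-type channels raises cytosolic calcium and releases stored hormone, while sodium channels shape the spikes. Several gamma-subunit genes also encode TARPs, proteins that accompany AMPA-type glutamate receptors.

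RNA of whole pituitaries from newborn pups (postnatal day 1) of mice kept on a high fat chow was pooled, and every pool was hybridised to its own Affymetrix mouse genome array. There are 3 groups with 5 pools each. Pit1+/+ pools are wild type for Pit1 and Pit1dw/dw pools carry the Snell dwarf allele of Pit1 (Pou1f1) on both chromosomes, both on the DW/J background. Prop1df/df pools, named as the labels name them, are homozygous df on the DF/B background. Pit1 is needed by somatotrophs, lactotrophs and thyrotrophs. Since the Prop1df/df pools were set against DW/J pools, genotype and strain cannot be told apart in those comparisons. Wild-type pools of the DF/B background were not analysed here. Neither the labels nor the design text tell how many pituitaries a pool held or the sex of the pups. Values are log2 RMA signals, on which a difference of 1 is a doubling, and the deposited values run from 1.83 to 14.8 with array medians between 4.31 and 4.43. A probe set's level depends on its probes, so levels are compared between pools for 1 gene and never between genes. In RNA of a whole gland, fewer cells of a type and less RNA per cell cannot be told apart.

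Growth hormone, the product of somatotrophs, was used to check the labels. Gh lay between 14.15 and 14.28 in the Pit1+/+ pools and between 7.15 and 10.31 in the Pit1dw/dw pools. In Prop1df/df pools 1 to 3 it was 13.58, 14.07 and 14.03, and in pools 4 and 5 it was 8.99 and 10.24. Pools 1 to 3 labelled Prop1df/df therefore stand near wild type for Gh, against their label, and calls that use them are also given without them. Tshb, the thyrotropin beta subunit, was 9.83, 9.89 and 9.68 in those 3 pools, against 6.28 and 7.17 in the other two and 11.67 to 12.29 in Pit1+/+. Pax7, a melanotroph factor, was low in all 5 Prop1df/df pools, at 5.45 to 6.22 against 7.95 to 8.47 in Pit1+/+ pools. Pit1+/+ pool 1 is listed under another genotype than its title says, and its Gh value was 14.22. Some pools of all 3 groups read high for genes of sensory neurons. Prph, a neurofilament gene of peripheral neurons, read above 7 in Pit1+/+ pool 3 (10.59), Pit1dw/dw pools 2 and 3 (7.79 and 9.89) and Prop1df/df pools 3 and 4 (10.46 and 8.93).

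All 3 comparisons come from a single limma fit over 18193 genes, and a gene passed at an adjusted p under 0.05 (Benjamini-Hochberg over all genes). Between Pit1dw/dw and Pit1+/+, 1 of the 35 channel genes fell and none rose, where 0.770% of all genes passed, 0.165% as higher and 0.605% as lower. The gene was Cacng6. In the same limma fit 5 members (14.3%) had an unadjusted p under 0.05, where 8.46% of all genes had one. In each Prop1df/df comparison 6 members (17.1%) had one. The share of all genes was 24.4% against Pit1+/+ and 20.1% against Pit1dw/dw. Between Prop1df/df and Pit1+/+, 4 fell and none rose, where 10.6% of all genes passed (3.25% higher, 7.31% lower); they were Scn2a, Cacna1d, Cacna1h and Cacng6. Between Prop1df/df and Pit1dw/dw, 3 fell and none rose, where 6.26% of all genes passed (2.21% higher, 4.05% lower); they were Scn2a, Cacna1d and Cacng8. Any 2 of these comparisons share the pools of a group, so they are not independent tests of a gene. In both Prop1df/df comparisons the share of channel genes that passed was near that of all genes.

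The median change over the 35 channel genes was -0.10 for Pit1dw/dw minus Pit1+/+, where the median over all genes was -0.02. It was -0.16 for Prop1df/df minus Pit1+/+ (all genes -0.04) and 0.05 for Prop1df/df minus Pit1dw/dw (all genes -0.02). Pools of the groups compared did not overlap at all for 1, 3 and 3 members in these comparisons, where 2.78%, 8.01% and 8.50% of all genes had no overlap. The groups thus overlapped for most channel genes, as for most of all genes, and the shares without overlap were near those of all genes.

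**Figure D1:**
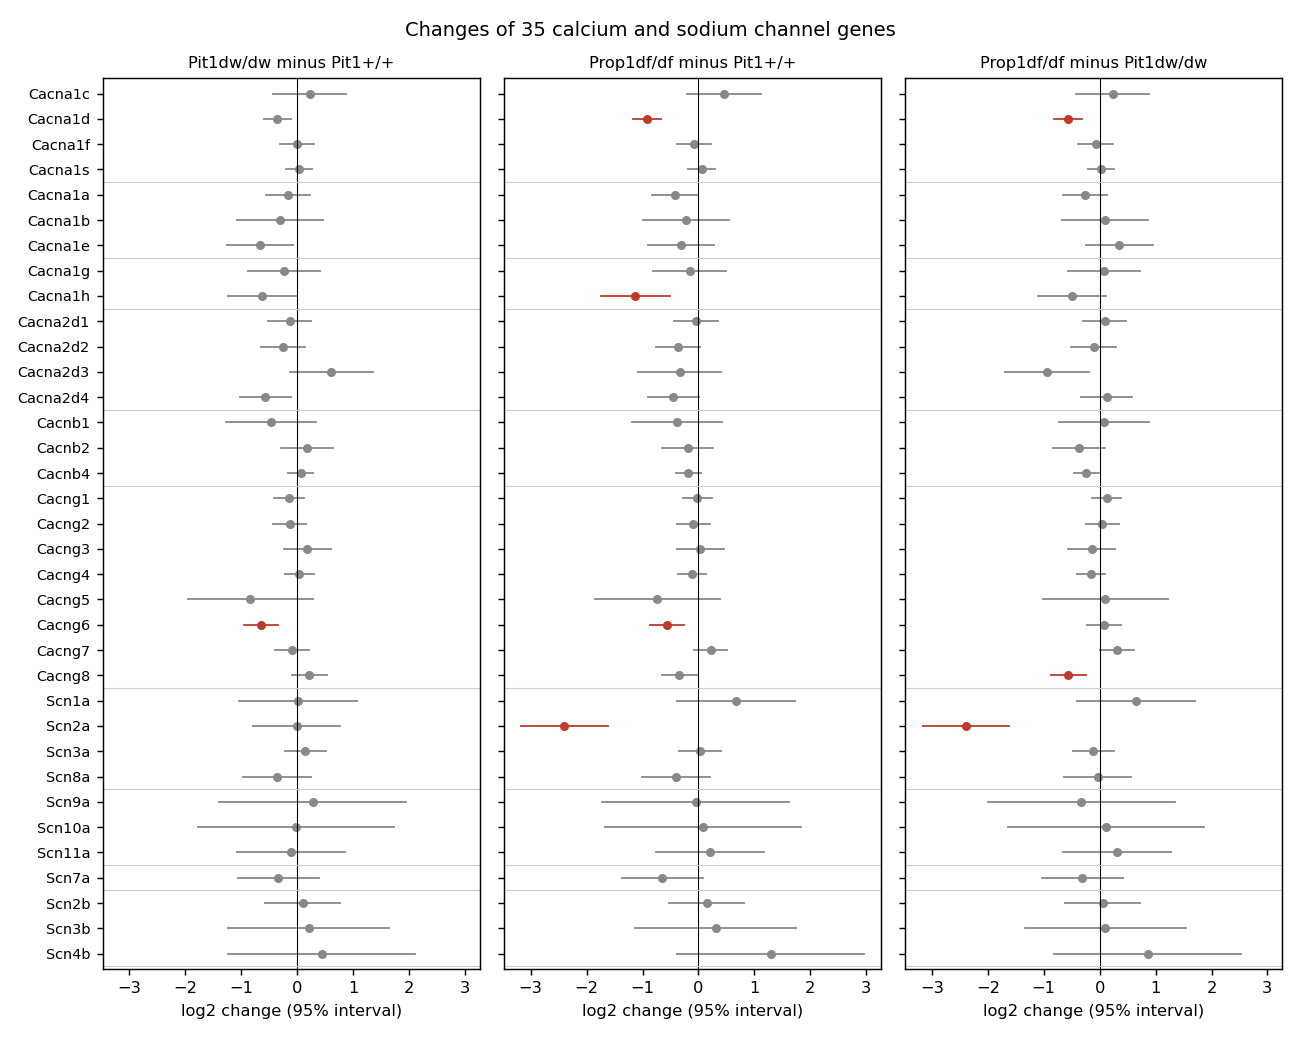
Change of each of the 35 channel genes (x axis, log2 difference of group means, point with 95% interval of the fit) in the 3 comparisons, with genes ordered by role on the y axis. Red marks an adjusted p under 0.05, which 1, 4 and 3 genes reached, all on the lower side; the widest intervals belong to Scn9a, Scn10a and Scn4b.

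The promoter windows of Scn2a and Cacna1d are shown because these genes fell in both Prop1df/df comparisons. Each is the 250 bases before an annotated start in RefSeq (GRCm38.p6), 5′ to 3′ on the gene's strand. Capitals mark the letters TATAAA (as in a TATA box) or GGGCGG (as in a GC box) on either strand. These are letter matches wherever they lie in the window, and whether any of them acts as a box was not tested. Both genes have 2 annotated starts, and the array does not say which of them is used. Scn2a starts lie on chromosome 2 after chr2:65620519-65620768 and chr2:65668436-65668685, plus strand, and Cacna1d starts on chromosome 14 after chr14:30491157-30491406 and chr14:30353487-30353736, minus strand.
Scn2a, start 1: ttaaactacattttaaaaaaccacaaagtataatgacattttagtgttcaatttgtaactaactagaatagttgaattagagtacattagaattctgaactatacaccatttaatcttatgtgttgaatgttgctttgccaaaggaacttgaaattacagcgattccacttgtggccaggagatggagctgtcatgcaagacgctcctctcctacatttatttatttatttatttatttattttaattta
Scn2a, start 2: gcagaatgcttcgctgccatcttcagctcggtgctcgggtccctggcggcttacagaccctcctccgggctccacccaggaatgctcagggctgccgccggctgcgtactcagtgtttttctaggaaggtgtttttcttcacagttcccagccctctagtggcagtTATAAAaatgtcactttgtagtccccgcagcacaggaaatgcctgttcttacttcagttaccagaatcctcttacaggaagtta
Cacna1d, start 1: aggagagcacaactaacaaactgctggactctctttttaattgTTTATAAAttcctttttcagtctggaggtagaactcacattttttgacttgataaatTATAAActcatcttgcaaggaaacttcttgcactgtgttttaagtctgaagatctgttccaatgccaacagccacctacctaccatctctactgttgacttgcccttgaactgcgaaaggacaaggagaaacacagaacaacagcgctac
Cacna1d, start 2: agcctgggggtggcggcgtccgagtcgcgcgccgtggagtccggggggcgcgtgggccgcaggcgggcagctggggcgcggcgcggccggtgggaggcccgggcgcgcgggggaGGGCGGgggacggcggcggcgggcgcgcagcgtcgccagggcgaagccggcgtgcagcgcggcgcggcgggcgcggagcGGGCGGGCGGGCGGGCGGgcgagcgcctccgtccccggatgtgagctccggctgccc
The first Scn2a window holds neither motif, and the second holds 1 TATAAA. The first Cacna1d window holds 3 matches of TATAAA, of which a pair on opposite strands overlaps, and the second is 86.4% G and C and holds 5 matches of GGGCGG. Of the 35 members, 27 have a window in the table, 37 windows in all. TATAAA is in 2 of the 37 windows (1 each of Scn2a and Cacna1d) and in 12.4% of all 32851 windows, and GGGCGG is in 14 of the 37 and in 32.7% of all. The core of a POU1F1 site (TATNCAT, either strand) occurs in 1 of the 37 windows, that of Scn1a, and in 7.92% of all windows.

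Scn2a encodes a sodium channel pore of central neurons. Its signal was 7.38, 7.13, 8.12, 7.36 and 7.22 in Pit1+/+ pools 1 to 5, and 7.85, 7.03, 7.66, 6.92 and 7.70 in the Pit1dw/dw pools. In the Prop1df/df pools it was 3.98, 5.46, 6.33, 5.21 and 4.24. Every Prop1df/df pool lay below every pool of the other groups, and the Pit1 groups overlapped throughout. The change was -2.40 ± 0.36 (SE, n = 5 pools a group) for Prop1df/df minus Pit1+/+, a 5.27-fold lower signal (limma, adjusted p = 0.000509). It was -2.39 ± 0.36 for Prop1df/df minus Pit1dw/dw (limma, adjusted p = 0.000641) and -0.01 for Pit1dw/dw minus Pit1+/+ (adjusted p = 0.998, 95% interval -0.78 to 0.77). Without Prop1df/df pools 1 to 3 the changes were -2.72 (adjusted p = 0.000529) and -2.71 (adjusted p = 0.000700), so the fall was as large in the 2 pools with low Gh.

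The fall of Scn2a was seen with 1 of its 4 probe sets, the brightest, with a mean of 6.64. The next brightest, with a mean of 5.39, differed by 0.58 (adjusted p = 0.255) and 0.44 (adjusted p = 0.439) in the Prop1df/df comparisons, on the opposite side. The remaining 2 had means of 3.70 and 2.88, at or below the median signal of 4.37 over all probe sets. With the mean of its 4 probe sets, Scn2a differed by -0.39 from Pit1+/+ (adjusted p = 0.135) and by -0.39 from Pit1dw/dw (adjusted p = 0.172), neither of which passed. Each probe set reads a short stretch of the transcript, so the result is a statement about that stretch, and which transcript forms it reads was not analysed here.

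Scn3a, the gene beside Scn2a on chromosome 2 in the RefSeq order, encodes the pore most typical of embryonic neurons. It read 9.35, 9.70, 9.65, 9.39 and 10.05 in the Pit1+/+ pools and 10.22, 9.88, 9.57, 9.71 and 9.46 in the Pit1dw/dw pools. In Prop1df/df it read 9.59, 9.54, 9.42, 9.61 and 10.13. The 3 groups overlapped fully, with changes of 0.14, 0.03 and -0.11 and none past the threshold.

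Scn8a, the pore that clusters at the axon initial segment and nodes, read 8.19, 8.48, 8.71, 7.92 and 9.29 in Pit1+/+. It read 7.73, 8.33, 8.33, 7.94 and 8.41 in Pit1dw/dw and 8.19, 7.75, 8.99, 8.27 and 7.35 in Prop1df/df. The groups overlapped, and no change passed (-0.37 in Pit1dw/dw and -0.41 in Prop1df/df against Pit1+/+). A further Scn8a probe set, with a mean of 7.18, fell in Prop1df/df against Pit1+/+ by 0.65 on the log2 scale when every probe set was tested on its own (adjusted p = 0.0416). Scn1a, the other central pore, spanned 7.09 to 9.36, 6.82 to 8.80 and 7.54 to 9.54 in the 3 groups, with no change past the threshold.

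**Figure D2:**
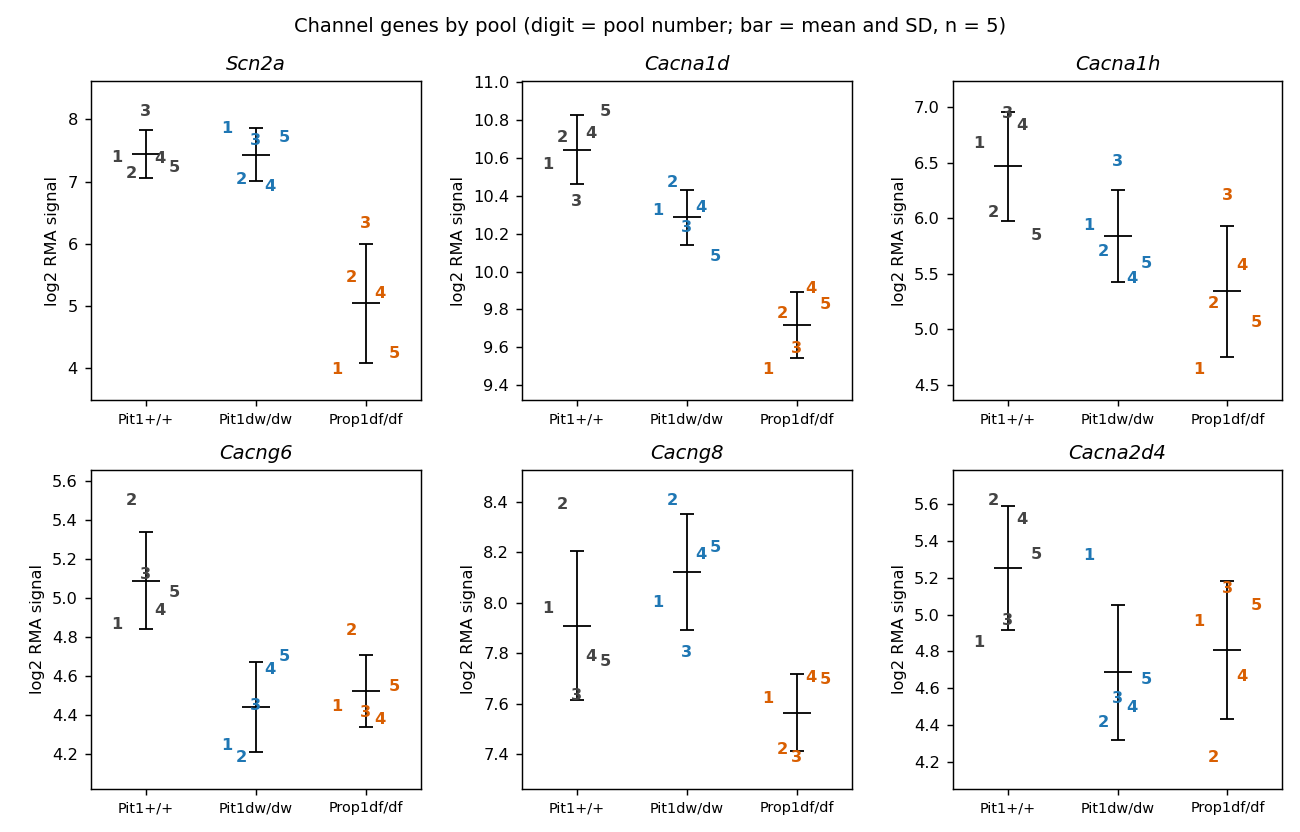
Signal of 6 channel genes in every pool (y axis, log2 RMA signal, a separate scale for each gene), with the digit giving the pool number and the bar the mean and SD of 5 pools. Scn2a and Cacna1d lie lower in all 5 Prop1df/df pools than in any other pool, Cacng6 lies highest in the Pit1+/+ pools, and Cacna2d4 overlaps between groups.

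L-type pores carry the long-lasting calcium current of endocrine cells. Cacna1d, the L-type pore that opens at low voltage and supports pacemaking, read 10.57, 10.71, 10.37, 10.73 and 10.84 in Pit1+/+ and 10.32, 10.47, 10.23, 10.34 and 10.08 in Pit1dw/dw. In Prop1df/df it read 9.48, 9.78, 9.60, 9.91 and 9.83. The Prop1df/df pools lay below all others, while the Pit1dw/dw pools overlapped the Pit1+/+ pools only at pool 3 of Pit1+/+. The change was -0.92 ± 0.12 (SE) for Prop1df/df minus Pit1+/+, 1.90-fold lower (limma, adjusted p = 0.000105), and -0.57 ± 0.12 for Prop1df/df minus Pit1dw/dw (adjusted p = 0.00668). For Pit1dw/dw minus Pit1+/+ it was -0.36 ± 0.12 and did not pass (adjusted p = 0.296).

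The fall of Cacna1d against Pit1+/+ passed under all 23 alternatives that could be run for it, with changes from -1.01 to -0.45, and was -0.78 without Prop1df/df pools 1 to 3 (adjusted p = 0.0104). Against Pit1dw/dw it was -0.42 without those pools (adjusted p = 0.204) and -0.55 without the pools high in Prph (adjusted p = 0.0712), and passed in neither. The other Cacna1d probe set had a mean of 2.86, within the lower quartile of every array (3.05 to 3.25), and gave no measure of the gene. Both probe sets are of the _s_at or _a_at kind, so the alternative that drops such probe sets could not be run for Cacna1d.

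Cacna1c, the L-type pore also known from heart muscle, read 7.50, 5.82, 7.65, 7.53 and 6.80 in Pit1+/+ and 7.37, 6.70, 7.53, 7.68 and 7.12 in Pit1dw/dw. In Prop1df/df it read 7.61, 7.55, 7.94, 7.53 and 6.93. Pit1+/+ pool 2 was the lowest of all 15, and the groups overlapped, with changes of 0.22, 0.45 and 0.23, none past the threshold. The 95% interval for Prop1df/df minus Pit1+/+ ran from -0.20 to 1.11, whereas that of Cacna1d ran from -1.17 to -0.68. Cacna1f, the retinal L-type pore, stayed between 3.10 and 3.94, and Cacna1s, the pore of skeletal muscle, between 2.32 and 2.84. No change of either passed.

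T-type pores open at voltages near rest. Cacna1h read 6.67, 6.05, 6.94, 6.84 and 5.85 in Pit1+/+, and 5.93, 5.70, 6.51, 5.46 and 5.60 in Pit1dw/dw. Values in Prop1df/df were 4.64, 5.23, 6.21, 5.58 and 5.06. Of the Prop1df/df pools, 4 lay below every Pit1+/+ pool and pool 3 lay among them. The change for Prop1df/df minus Pit1+/+ was -1.13 ± 0.29 (SE), 2.18-fold lower (limma, adjusted p = 0.0189). For Pit1dw/dw minus Pit1+/+ it was -0.63 ± 0.29 (adjusted p = 0.575) and for Prop1df/df minus Pit1dw/dw -0.50 (adjusted p = 0.359), neither past the threshold.

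The call for Cacna1h was lost without Pit1+/+ pool 4 (-1.03, adjusted p = 0.0529), without Prop1df/df pool 1 (-0.95, adjusted p = 0.0554) and without Prop1df/df pools 1 to 3 (-1.15, adjusted p = 0.0712). Its other probe set, with a mean of 3.43, also fell, by 0.49 on the log2 scale (adjusted p = 0.0305 with every probe set tested on its own). Cacna1g, the second T-type pore, read 6.72, 5.50, 6.63, 6.65 and 5.32 in Pit1+/+ and 6.23, 5.81, 6.14, 6.13 and 5.33 in Pit1dw/dw. Prop1df/df pools read 5.34, 6.13, 6.68, 5.80 and 6.05. These overlapped, with changes of -0.23, -0.16 and 0.07, none past the threshold.

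P/Q-, N- and R-type pores serve transmitter release at nerve endings, and none of the 3 passed in any comparison. Cacna1a, the P/Q-type pore, read 6.45, 6.44, 7.22, 6.52 and 6.44 in Pit1+/+ and 6.54, 6.39, 6.76, 6.24 and 6.32 in Pit1dw/dw. The Prop1df/df pools gave 5.90, 5.95, 6.78, 6.29 and 6.01. Pool 3 was the highest of each group, and 4 of 5 Prop1df/df pools lay below every Pit1+/+ pool. The change for Prop1df/df minus Pit1+/+ was -0.43 ± 0.19 (SE, limma, adjusted p = 0.168). Without the pools high in Prph it was -0.51 (adjusted p = 0.0267), and without Prop1df/df pool 3 alone -0.58 (adjusted p = 0.0355), both past the threshold.

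Cacna1e, the R-type pore, read 7.25, 5.87, 7.19, 6.34 and 6.22 in Pit1+/+ and 5.35, 5.79, 6.39, 5.91 and 6.11 in Pit1dw/dw. Values in Prop1df/df were 6.06, 6.09, 6.68, 6.73 and 5.75. Pit1+/+ pools 1 and 3 stood above the rest, and the change for Pit1dw/dw minus Pit1+/+ was -0.66 ± 0.28 (SE, limma, adjusted p = 0.509). Cacna1b, the N-type pore, spanned 5.99 to 7.64, 5.73 to 6.76 and 5.49 to 7.33 in the 3 groups, with pool 3 highest in each.

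The alpha2delta subunits bring calcium channel pores to the membrane, and Cacna2d1 is the binding partner of gabapentin. Cacna2d1 read 9.48, 10.03, 9.60, 9.36 and 10.31 in Pit1+/+ and 9.95, 9.78, 9.41, 9.63 and 9.34 in Pit1dw/dw. Prop1df/df pools read 9.68, 9.63, 9.52, 9.62 and 10.11. It overlapped throughout, with changes of -0.14, -0.05 and 0.09, and the intervals of all 3 lay within -0.53 and 0.48. Its pool ranges were thus at most 0.95 in a group.

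Cacna2d3 read 6.14, 6.72, 6.90, 5.51 and 5.85 in Pit1+/+ and 6.60, 6.64, 6.92, 6.60 and 7.39 in Pit1dw/dw. The Prop1df/df pools gave 5.26, 5.38, 7.24, 6.12 and 5.44. Of the Prop1df/df pools, 4 lay below every Pit1dw/dw pool and pool 3 lay among them. The change for Prop1df/df minus Pit1dw/dw was -0.94 ± 0.35 (SE, limma, adjusted p = 0.136). It was -1.28 without Prop1df/df pool 3 (adjusted p = 0.0106) and -1.50 without the pools high in Prph (adjusted p = 0.0183), past the threshold in both.

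Cacna2d4, an alpha2delta subunit known from the retina, spanned 4.85 to 5.62 in Pit1+/+, 4.42 to 5.32 in Pit1dw/dw and 4.22 to 5.14 in Prop1df/df. It did not pass (-0.57, adjusted p = 0.401, and -0.45, adjusted p = 0.208, against Pit1+/+). A dimmer probe set of the gene fell with each probe set tested on its own. Its group means were 4.45 in Pit1+/+, 3.22 in Pit1dw/dw and 3.35 in Prop1df/df (-1.23, adjusted p = 0.00831, and -1.09, adjusted p = 0.00278). Cacna2d2 spanned 4.80 to 5.85 over the 15 pools and did not pass.

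**Figure D3:**
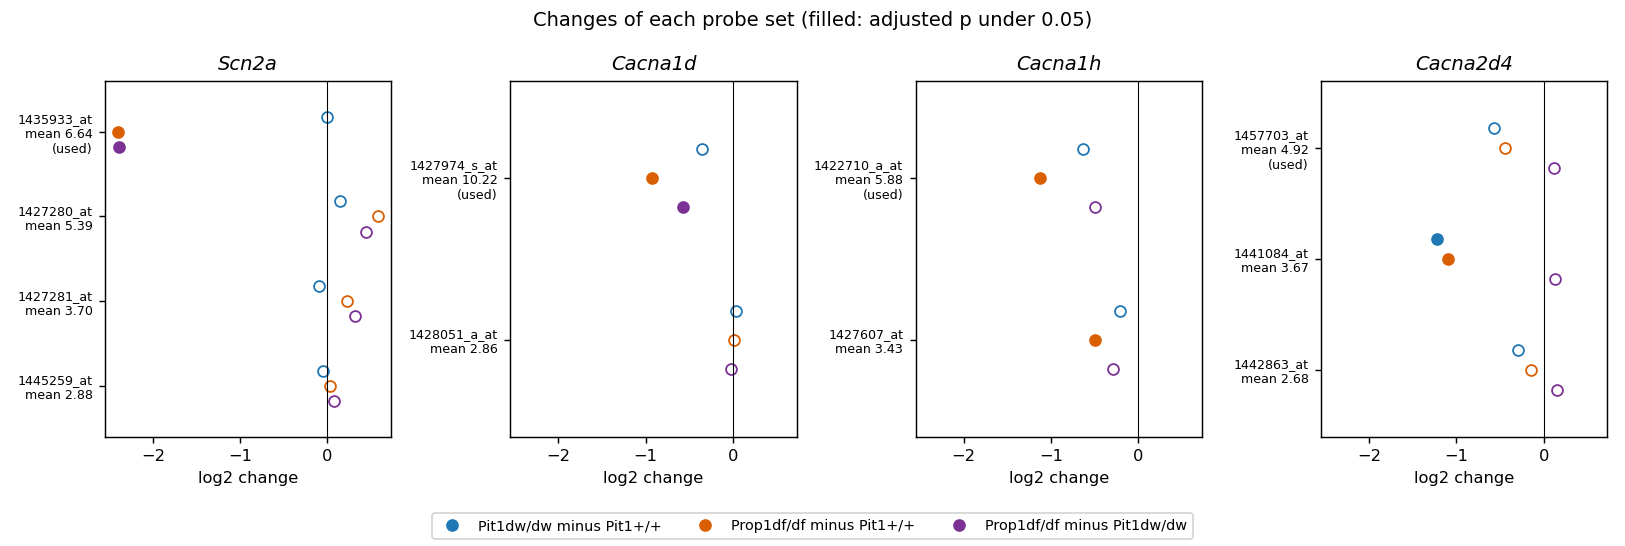
Change of every probe set of Scn2a, Cacna1d, Cacna1h and Cacna2d4 (x axis, log2 difference of group means) in the 3 comparisons, filled where the adjusted p was under 0.05 with all probe sets tested on their own. The y axis names each probe set with its mean log2 signal; 1 of 4 Scn2a probe sets fell, and both of Cacna1h fell in Prop1df/df minus Pit1+/+.

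The calcium channel beta subunits bind the pore from the cytosol and carry it to the membrane. Cacnb1 spanned 3.21 to 5.65 over the 15 pools, Cacnb2 3.13 to 4.55 and Cacnb4 5.63 to 6.28. None of the 3 passed in any comparison; the change of Cacnb4, the one with the least spread, was -0.24 for Prop1df/df minus Pit1dw/dw (adjusted p = 0.204). A second Cacnb4 probe set, with a mean of 4.58, fell by 0.70 on the log2 scale in that comparison with every probe set tested on its own (adjusted p = 0.0400).

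Of the 8 gamma-subunit and TARP genes, Cacng6 and Cacng8 passed. Cacng6, a gamma subunit related to that of skeletal muscle, read 4.87, 5.50, 5.12, 4.94 and 5.03 in Pit1+/+. It read 4.24, 4.18, 4.45, 4.63 and 4.70 in Pit1dw/dw and 4.44, 4.83, 4.41, 4.38 and 4.55 in Prop1df/df. All Pit1+/+ pools lay above all pools of both mutants, and the mutants overlapped. The change was -0.65 ± 0.14 (SE) in Pit1dw/dw (limma, adjusted p = 0.0454) and -0.57 ± 0.14 in Prop1df/df (adjusted p = 0.0169), 1.57-fold and 1.48-fold lower.

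The Cacng6 levels are close to the median signal of 4.37. The call in Pit1dw/dw was lost in 20 of 24 alternatives, with changes from -0.71 to -0.33 over all 24. Leaving out any 1 pool other than Pit1dw/dw pool 5 lost it, with adjusted p from 0.0532 to 0.152. That includes Pit1+/+ pool 1, the pool listed under another genotype (-0.71, adjusted p = 0.0532). The call in Prop1df/df was lost in 4 of 24, among them without Prop1df/df pools 1 to 3 (-0.63, adjusted p = 0.0889) and without the pools high in Prph (-0.47, adjusted p = 0.144).

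Cacng8, a TARP gene, read 7.98, 8.39, 7.63, 7.79 and 7.77 in Pit1+/+ and 8.0, 8.40, 7.80, 8.19 and 8.22 in Pit1dw/dw. Values in Prop1df/df were 7.62, 7.42, 7.38, 7.70 and 7.70. The Prop1df/df pools lay below every Pit1dw/dw pool, and the highest of them, 7.70, was above the lowest Pit1+/+ pool. The change for Prop1df/df minus Pit1dw/dw was -0.56 ± 0.15 (SE, limma, adjusted p = 0.0319), 1.47-fold lower, and for Prop1df/df minus Pit1+/+ -0.35 (adjusted p = 0.157). The call was lost in 11 of 24 alternatives, among them leaving out any 1 of Pit1dw/dw pools 2, 4 and 5 or Prop1df/df pools 1, 2 and 3 (adjusted p from 0.0563 to 0.0934), and without Prop1df/df pools 1 to 3 together (-0.42, adjusted p = 0.385). Another was Xist as a covariate (-0.59, adjusted p = 0.0504).

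Cacng7, Cacng8 and Cacng6 lie side by side on chromosome 7 in the RefSeq order. Cacng7, at 3.00 to 3.93, did not pass in any comparison. Cacng5, a TARP gene, read 5.64, 5.13, 6.53, 5.03 and 4.16 in Pit1+/+, and 3.92, 4.35, 5.29, 3.94 and 4.80 in Pit1dw/dw. Prop1df/df pools read 3.52, 3.76, 6.25, 5.51 and 3.77. Pool 3 was the highest in each group, and the changes against Pit1+/+ were -0.84 ± 0.53 (SE, limma, adjusted p = 0.744) and -0.74 ± 0.53 (adjusted p = 0.424). With the sensory neuron list mean as a covariate they were -1.17 (adjusted p = 0.0373) and -1.08 (adjusted p = 0.00975). Cacng1 (2.55 to 3.18), Cacng2 (4.72 to 5.54), Cacng3 (2.74 to 4.09) and Cacng4 (4.55 to 5.24) did not pass.

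Scn9a, Scn10a and Scn11a are the sodium pores of nociceptive sensory neurons. Scn10a read 3.03, 3.11, 7.04, 3.76 and 3.29 in Pit1+/+, 3.67, 4.46, 5.56, 3.13 and 3.31 in Pit1dw/dw, and 2.97, 3.25, 6.81, 4.56 and 3.08 in Prop1df/df. Pool 3 of each group was high, and the lowest pool of each group lay near the lower quartile of the arrays (3.05 to 3.25). Scn9a read 5.63, 5.76, 8.75, 5.38 and 5.71 in Pit1+/+, 6.23, 6.58, 7.81, 5.73 and 6.28 in Pit1dw/dw, and 5.31, 4.95, 8.65, 7.63 and 4.47 in Prop1df/df. Scn11a spanned 8.30 to 10.57, 8.23 to 9.75 and 8.36 to 10.39. The groups overlapped for all 3 genes, and no change passed; the 95% intervals of Scn10a reached from -1.77 to 1.73 in Pit1dw/dw minus Pit1+/+. Without the pools high in Prph, Scn9a fell in Prop1df/df against Pit1dw/dw by 1.17 on the log2 scale (limma, adjusted p = 0.0169).

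The sodium channel beta subunits are single-span proteins that join the pores. Scn4b read 3.45, 3.03, 6.83, 3.38 and 3.09 in Pit1+/+, 3.82, 3.70, 6.21, 3.86 and 4.38 in Pit1dw/dw, and 4.22, 4.95, 7.19, 6.30 and 3.58 in Prop1df/df. The change for Prop1df/df minus Pit1+/+ was 1.29 ± 0.79 (SE, limma, adjusted p = 0.338) and did not pass; without the pools high in Prph it was 1.01 (adjusted p = 0.0477). Scn3b spanned 4.03 to 7.57, 4.43 to 6.74 and 4.38 to 7.41, and Scn2b 7.22 to 8.44, 7.24 to 8.28 and 7.10 to 8.75. Neither passed in any comparison.

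Scn7a encodes the sodium-sensing channel found in glia and Schwann cells. It read 8.58, 8.47, 9.46, 8.23 and 8.40 in Pit1+/+, 8.48, 8.64, 8.70, 7.92 and 7.74 in Pit1dw/dw, and 7.59, 7.63, 9.16, 8.43 and 7.11 in Prop1df/df. Pool 3 was again the highest in each group. The change for Prop1df/df minus Pit1+/+ was -0.65 ± 0.34 (SE, limma, adjusted p = 0.264). It was -0.98 without the pools high in Prph (adjusted p = 0.0126) and -0.94 without Prop1df/df pool 3 (adjusted p = 0.0482).

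Several sodium channel genes were high in the pools in which genes of sensory neurons were high. The mean log2 signal of 13 sensory neuron genes (Prph, Avil, Nefl and others) was 4.38, 4.54, 8.81, 4.68 and 4.17 in the Pit1+/+ pools and 4.54, 6.52, 8.19, 4.66 and 6.23 in the Pit1dw/dw pools. In the Prop1df/df pools it was 5.21, 4.69, 8.65, 7.55 and 4.16. The 5 pools with the highest Scn10a (Pit1+/+ pool 3, Prop1df/df pool 3, Pit1dw/dw pool 3, Prop1df/df pool 4, Pit1dw/dw pool 2) are the 5 with the highest list mean, in the same order. This is a description of 15 pools, and the list and the channel genes share their arrays. Summed on the linear scale, the list spanned 471 to 12745 in Pit1+/+, 584 to 8514 in Pit1dw/dw and 418 to 11656 in Prop1df/df. None of the 13 genes passed in any comparison.

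Pool 3 held the highest value of its group for 9 of 11 sodium channel genes in Pit1+/+, 6 of 11 in Pit1dw/dw and 10 of 11 in Prop1df/df. For all 35 channel genes pool 3 was highest in 51.4%, 42.9% and 62.9%, against 21.3%, 20.5% and 28.6% of all genes. A list of 7 Schwann cell genes was also high in pool 3, at 9.52 in Pit1+/+ and 8.87 in Pit1dw/dw, and highest in pool 4 in Prop1df/df, at 9.53. The mean of a list of 13 skeletal muscle genes stayed between 3.39 and 4.21 in all pools. Of the 13, 1 fell in each mutant against Pit1+/+, where 0.605% (Pit1dw/dw) and 7.31% (Prop1df/df) of all genes fell. Actn2 of this list had means of 4.81 in Pit1+/+, 3.80 in Pit1dw/dw and 3.33 in Prop1df/df. Without the 5 pools high in Prph, Scn2a kept both calls, and Cacna1d and Cacna1h kept theirs against Pit1+/+. Calls were lost for Cacna1d against Pit1dw/dw (-0.55, limma adjusted p = 0.0712) and Cacng8 (-0.56, adjusted p = 0.120). Cacng6 lost its calls in Pit1dw/dw (-0.56, adjusted p = 0.510) and Prop1df/df (-0.47, adjusted p = 0.144) against Pit1+/+.

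**Figure D4:**
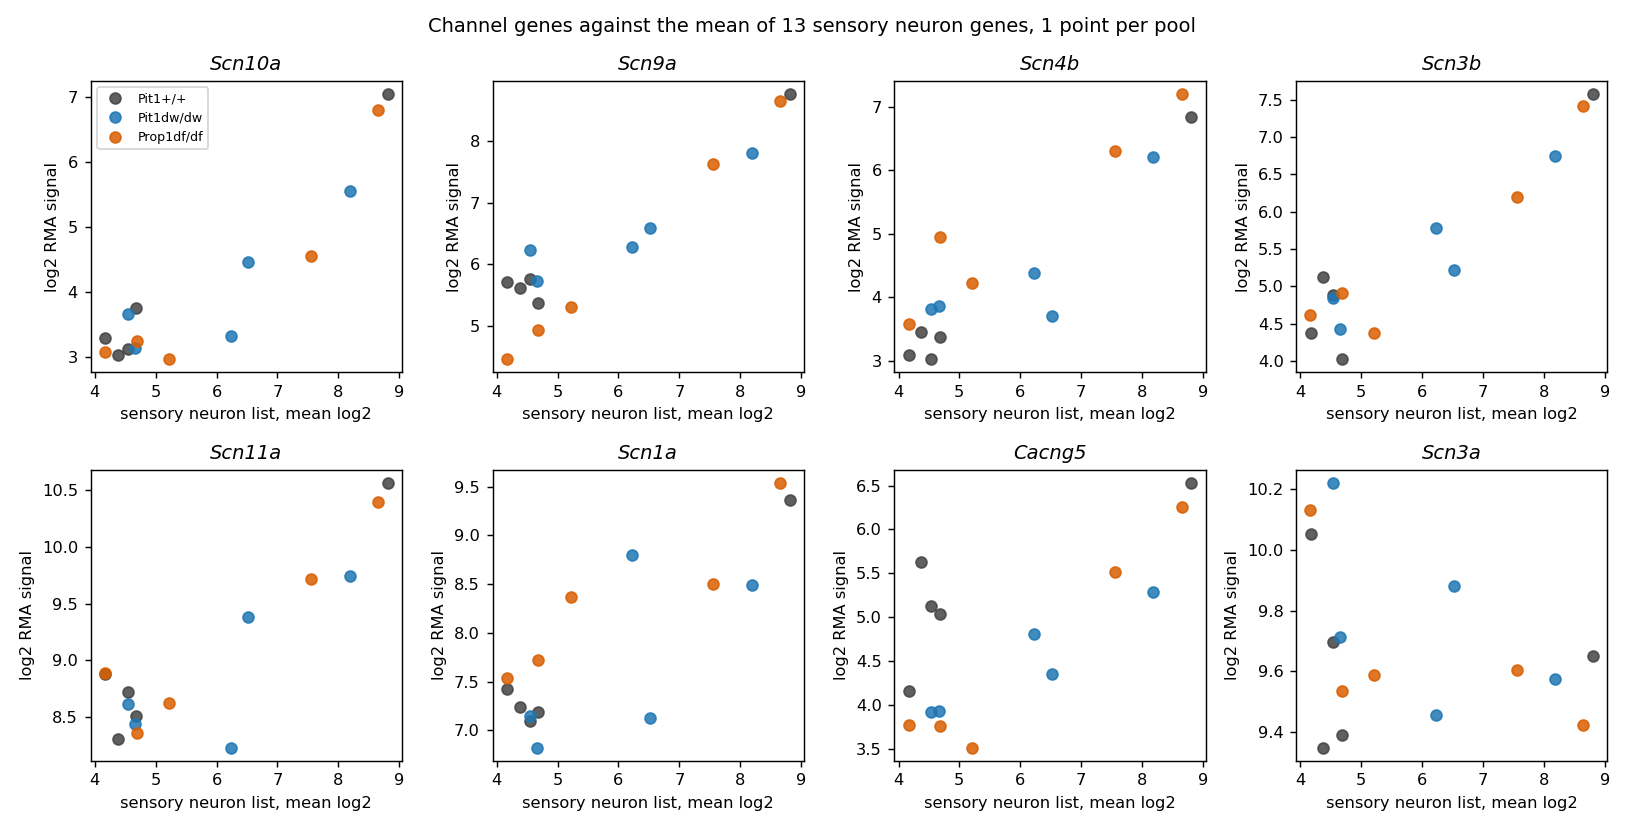
Signal of 8 channel genes in each of the 15 pools (y axis, log2 RMA signal) against the mean log2 signal of 13 sensory neuron genes in the same pool (x axis), coloured by group. Scn10a, Scn9a, Scn4b, Scn3b and Scn11a are highest in the pools with a list mean above 7, from all 3 groups, and Scn3a is not.

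Other cell types also moved with the groups. Of 8 measured genes of the Pit1 lineage (Gh, Tshb and others), 8 fell in Pit1dw/dw and 7 in Prop1df/df against Pit1+/+, and their summed linear signal spanned 24155 to 28196 in Pit1+/+, 737 to 1918 in Pit1dw/dw and 1052 to 19010 in Prop1df/df. Of 7 gonadotroph genes, 4 fell in Prop1df/df against Pit1+/+ and 6 against Pit1dw/dw, with sums of 7173 to 11108, 4136 to 8699 and 1950 to 4382. In Pit1dw/dw against Pit1+/+ 2 of the 7 rose, Gnrhr from a mean of 6.78 to 8.27 and Nr5a1 from 5.37 to 6.75. Of 8 corticotroph and melanotroph genes, 4 and 6 fell in the same comparisons, with sums of 14825 to 17916, 18383 to 20324 and 10372 to 15315. The 10 neural lobe and hypothalamus genes had sums of 1002 to 2085, 1069 to 1444 and 706 to 1727. Of them 3 fell in Prop1df/df against Pit1+/+, where 5 of the 10 changes were positive and 5 negative (median -0.04). The 7 Schwann cell genes all had a positive change there (median 1.32), and none passed. The falls of channel genes in Prop1df/df against Pit1+/+ stood beside falls in the Pit1 lineage, gonadotroph, and corticotroph and melanotroph lists. They also stood beside falls of 3 neural lobe and hypothalamus genes. In the corticotroph and melanotroph list 6 of these changes were negative and 2 positive. Pax7 had means of 8.25 in Pit1+/+ and 5.97 in Prop1df/df, and Tbx19, a corticotroph factor, 7.98 and 7.91. The falls of Scn2a, Cacna1d and Cacng8 against Pit1dw/dw stood beside falls in the gonadotroph and the corticotroph and melanotroph lists. That of Cacng6 in Pit1dw/dw stood beside the fall of the Pit1 lineage. The part of these cell types in the channel results was not tested.

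Proteins that bind or regulate the channels were followed in a list of 32 genes, of which 26 were measured. None rose and 1, 5 and 4 fell in the 3 comparisons, where 0.605%, 7.31% and 4.05% of all genes fell. Rem2, a small GTPase that inhibits calcium channels, lay at 7.70, 8.33, 7.58, 7.47 and 7.62 in Pit1+/+ and 7.18, 7.34, 7.12, 7.20 and 7.19 in Pit1dw/dw. The Prop1df/df pools gave 6.23, 6.52, 6.73, 6.51 and 6.25, below all other pools. It fell by 1.29 ± 0.15 (SE, log2 scale) in Prop1df/df against Pit1+/+ (limma, adjusted p = 4.70e-05) and by 0.76 against Pit1dw/dw (adjusted p = 0.00470). Rimbp2, which tethers calcium channels at release sites, lay at 8.02 to 8.58 in Pit1+/+, 7.16 to 7.72 in Pit1dw/dw and 6.89 to 7.39 in Prop1df/df. It fell by 0.95 in Pit1dw/dw (adjusted p = 0.00284) and by 1.20 in Prop1df/df (adjusted p = 5.64e-05), with neither mutant overlapping Pit1+/+.

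Nalcn encodes the sodium leak channel, which sets the resting potential of pituitary cells, and Unc80 is its scaffold. Nalcn lay at 7.01, 7.60, 7.15, 6.97 and 7.03 in Pit1+/+ and at 7.09, 7.50, 6.96, 7.23 and 6.94 in Pit1dw/dw. Values in Prop1df/df were 6.0, 6.58, 6.61, 6.69 and 6.03. Like Scn2a, it was low in all 5 Prop1df/df pools and overlapped between the Pit1 groups. It fell by 0.77 (limma, adjusted p = 0.00797) and by 0.76 (adjusted p = 0.0121) in the Prop1df/df comparisons. Unc80 lay at 8.29 to 8.72, 8.16 to 8.68 and 7.73 to 8.12, and fell by 0.54 (adjusted p = 0.0153) and by 0.53 (adjusted p = 0.0247). Fgf14, an intracellular protein that binds sodium channel pores, lay at 7.41 to 8.13, 7.86 to 8.28 and 6.87 to 7.48, and fell by 0.55 (adjusted p = 0.0234) and by 0.93 (adjusted p = 0.000794). Without Prop1df/df pools 1 to 3, Nalcn lost both calls at changes of -0.79 and -0.78 (limma, adjusted p = 0.0645 and 0.0957), as did Unc80 at -0.33 and -0.32 (adjusted p = 0.355 and 0.455). Fgf14 lost the call against Pit1+/+ at a change of -0.69 (adjusted p = 0.0582). Fgf14 also lost that call without Pit1+/+ pool 2 (adjusted p = 0.0618) or Prop1df/df pool 4 (adjusted p = 0.0588). Unc80 lost the call against Pit1dw/dw without any 1 of Pit1dw/dw pools 1, 2 and 4 or Prop1df/df pools 1 and 2 (adjusted p from 0.0601 to 0.0753).

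Genes that store, pump and buffer calcium formed a list of 24, of which 23 were measured. None rose and 1, 3 and 2 fell, beside 0.605%, 7.31% and 4.05% of all genes. Calb1, the cytosolic buffer calbindin, lay at 8.20, 8.95, 7.91, 7.93 and 8.48 in Pit1+/+ and at 7.76, 8.13, 7.48, 7.87 and 7.87 in Pit1dw/dw. Prop1df/df pools read 6.34, 7.19, 7.42, 6.38 and 6.27, below all other pools, and fell by 1.58 (limma, adjusted p = 0.000631) and by 1.11 (adjusted p = 0.0120). Slc8a1, a sodium-calcium exchanger, lay at 6.11 to 7.11, 5.06 to 6.26 and 4.25 to 6.10, and fell by 1.35 in Prop1df/df against Pit1+/+ (adjusted p = 0.0112).

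Stim2, the sensor of calcium in the endoplasmic reticulum, lay at 8.27 to 8.48 in Pit1+/+, 8.60 to 8.87 in Pit1dw/dw and 8.08 to 8.36 in Prop1df/df. It fell by 0.52 in Prop1df/df against Pit1dw/dw (limma, adjusted p = 0.00152). The call was lost without Prop1df/df pools 1 to 3 (adjusted p = 0.0915) and without the pools high in Prph (adjusted p = 0.0571). Against Pit1+/+ Stim2 changed by 0.36 in Pit1dw/dw (adjusted p = 0.0842), without overlap of pools, and by -0.16 in Prop1df/df (adjusted p = 0.291). Neither passed. The rise in Pit1dw/dw passed with averaged probe sets (adjusted p = 0.0124), every probe set on its own (0.0468) and array weights (0.0141). Ryr1, the calcium release channel that pairs with L-type pores in muscle, lay at 4.74 to 5.65, 4.21 to 4.50 and 4.33 to 5.23. It fell by 0.96 in Pit1dw/dw (adjusted p = 0.0194) and by 0.73 in Prop1df/df (adjusted p = 0.0169) against Pit1+/+. Without any 1 of Pit1+/+ pools 1, 2 and 4 or Pit1dw/dw pools 1, 2 and 4, the call in Pit1dw/dw was lost (adjusted p from 0.0503 to 0.0623). Averaged over their probe sets, Fgf14 lost both calls (adjusted p = 0.831 and 0.611), Calb1 the call against Pit1dw/dw (-0.41, adjusted p = 0.158) and Ryr1 the call in Pit1dw/dw (-0.55, adjusted p = 0.0716). Against Pit1+/+ the falls in Prop1df/df kept their calls but were smaller for Calb1 (-0.70, adjusted p = 0.0113) and Slc8a1 (-0.34, adjusted p = 0.0483). Without Prop1df/df pools 1 to 3, 1, 2 and 2 of the channel partners and 1, 3 and 1 of the calcium-handling genes fell, and none rose. Over all 18193 genes, 130, 890 and 503 passed under that setting, against 140, 1920 and 1139 with all pools.

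**Figure D5:**
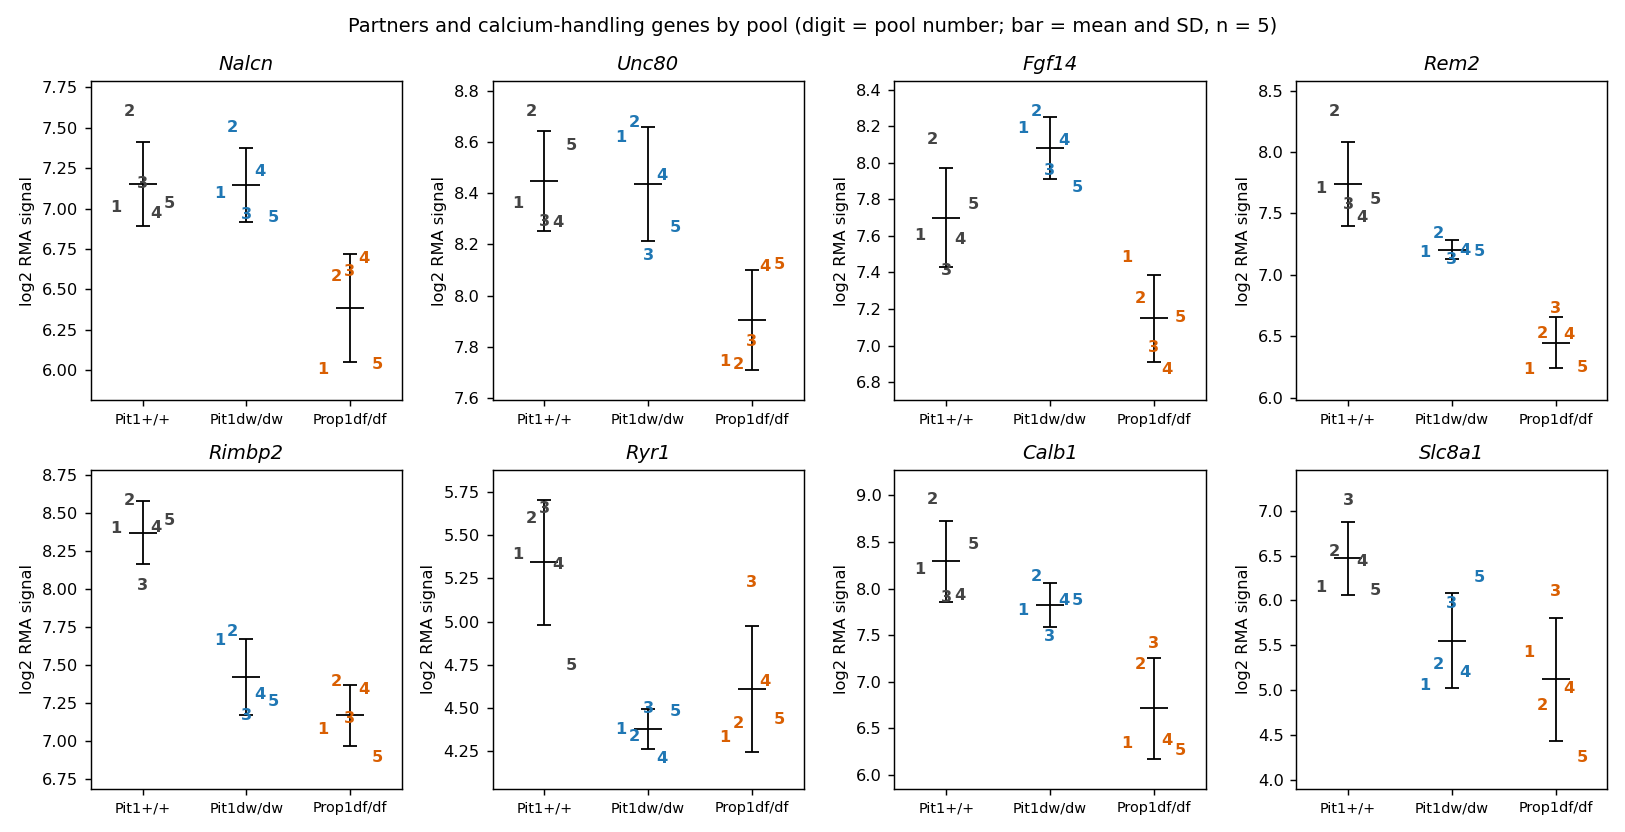
Signal of 8 channel partners and calcium-handling genes in every pool (y axis, log2 RMA signal, a separate scale for each gene), with the digit giving the pool number and the bar the mean and SD of 5 pools. Rem2, Nalcn, Unc80 and Calb1 are lower in all 5 Prop1df/df pools than in any other pool, and Rimbp2 is higher in all 5 Pit1+/+ pools than in any mutant pool.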

How the data were processed

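The authors deposited log2 RMA signals of 15 arrays (RMA per the submitters' processing notes, which name no version). Besides 64 controls, the 45101 probe sets comprise 34945 with 1 gene in the annotation, 932 with several (0 of them a member) and 9160 with none. Each of 18193 genes was read from its brightest probe set on average, and all 35 member symbols were unchanged in RefSeq. Pools were grouped by title. A model of 3 group means over the 15 arrays (limma 3.58.1, R 4.3.3, lmFit with eBayes, two-sided) gave p-values adjusted by Benjamini-Hochberg over all genes within a comparison, threshold 0.05. The procedure was also run on simulated data with noise independent between genes and arrays. That run does not cover deviations that many genes of a pool share, as in pools 3. The labels call the pools biological replicates; p-values measure the spread between pools, and the number of arrays limits the precision. The highest correlation between 2 arrays was 0.992 and none were identical.

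The members, gene lists and alternatives were chosen with earlier results of these data known. Pool values are given for members that passed, the 3 largest changes per comparison, the 2 with the widest pool range per group, and members best known in pituitary cells; from the partner and calcium lists, up to 6 that passed with the smallest adjusted p are named. Scn7a is given by pool outside this rule, chosen after its values were seen, and the other members by ranges. Alternatives were median centring, a second quantile normalization, the average over a gene's probe sets, every probe set on its own, a filter on dim genes, dropping _x_at, _s_at and _a_at probe sets, another variance prior, array weights, only the groups compared, a replicate block, the sensory neuron list or Xist as a covariate, leaving out pools with Prph above 7, and each pool in turn. Leaving out Prop1df/df pools 1 to 3 was added after seeing the data. Some items are not reported here.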

Additional observations from a re-analysis of the deposited data

Results flagged for a closer look

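In each group of 5 pools, a highest or lowest pool was listed here if its gap to the nearest pool took an unusually large part of the group's range (Dixon's 95% limit). This held for 20 of 165 groups searched (12.1%), among them 16 of 105 for the channel genes (15.2%). Chance gives about 1 in 20 for groups that are independent. These groups share arrays, and many of the flags fall on the same array, Pit1+/+ pool 3. The share over all genes was not computed, so the 15.2% cannot be read as a trait of the channel genes.

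Pit1+/+ pool 3 stood above the other wild-type pools for Cacna1a (7.22, next 6.52), Cacna1b (7.64, next 6.38), Scn10a (7.04, next 3.76), Scn11a (10.57, next 8.88), Scn1a (9.36, next 7.43) and Scn2a (8.12, next 7.38). It also stood above them for Scn2b (8.44, next 7.48), Scn4b (6.83, next 3.45), Scn7a (9.46, next 8.58) and Scn9a (8.75, next 5.76), as it did for Prph (10.59, next 3.74) and the sensory neuron list mean (8.81, next 4.68). Pit1dw/dw pool 3 stood apart for Scn4b (6.21, next 4.38). Pit1dw/dw pool 1 was high for Cacna2d4 (5.32, next 4.65) and Cacng3 (4.09, next 3.11). Prop1df/df pool 5 was high for Cacna2d1 (10.11, next 9.68), Cacng2 (5.54, next 4.86), Scn3a (10.13, next 9.61) and the skeletal muscle list mean (4.21, next 3.58). Pit1+/+ pool 2 was high for Rem2 (8.33, next 7.70).

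Probe sets that do not represent their gene in the comparisons passed in 5 cases when tested on their own. They belong to Cacna1h (-0.49, limma adjusted p = 0.0305), Cacna2d4 (-1.09, adjusted p = 0.00278) and Scn8a (-0.65, adjusted p = 0.0416) in Prop1df/df minus Pit1+/+, Cacna2d4 in Pit1dw/dw minus Pit1+/+ (-1.23, adjusted p = 0.00831) and to Cacnb4 in Prop1df/df minus Pit1dw/dw (-0.70, adjusted p = 0.0400).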

How the results depend on the processing

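The count of channel genes that passed in Pit1dw/dw minus Pit1+/+, 1 in the reported fit, was 0 with median centring, a second quantile normalization, the trend and robust prior, only the 2 groups compared, the replicate block, Xist as a covariate, without the pools high in Prph and without Prop1df/df pools 1 to 3, and 0 to 1 with each pool left out. In Prop1df/df minus Pit1+/+ the count of 4 became 7 with the sensory neuron list as a covariate, 7 without the pools high in Prph (6 lower, 1 higher) and 2 without Prop1df/df pools 1 to 3, with 3 to 6 over single pools left out. In Prop1df/df minus Pit1dw/dw the count of 3 became 0 when a gene's probe sets were averaged and 1 without Prop1df/df pools 1 to 3, with 2 to 3 over single pools left out. Over all genes, array weights raised the counts of 140, 1920 and 1139 to 571, 4297 and 2390, leaving out single pools gave 83 to 161, 1401 to 3258 and 826 to 1345, leaving out the pools high in Prph gave 51, 1632 and 746, leaving out Prop1df/df pools 1 to 3 gave 130, 890 and 503, and the sensory neuron covariate gave 173, 2734 and 1537. No called change of a named gene turned its sign. With its probe sets averaged, Cacna1d also lost its call against Pit1dw/dw (-0.29, limma adjusted p = 0.103). Of the members that did not pass, 2 of 34, 7 of 31 and 3 of 32 passed under at least 1 alternative. The share of all genes that did the same was not counted, so these counts show nothing particular to the channel genes. The labels tie no pool number to a shared litter or batch, and deviations of same-numbered pools did not all correlate. They did for pools 3 (0.674, 0.509 and 0.639), which are high for sensory neuron genes in every group. For the other numbers the correlations ranged from -0.309 to 0.402. The numbers were not taken as pairs in the main fit, and 6 of 15 pools correlated best with their own number. That count was not set against chance, so a shared batch was not tested. The replicate block gave 0, 6 (5 lower, 1 higher) and 3 channel genes, and 137, 2138 and 1313 of all genes.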

Other observations

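Scn3a and Cacna2d1, on chromosomes 2 and 5, had their highest pool in common in every group. That pool was Pit1+/+ pool 5 (Scn3a 10.05, Cacna2d1 10.31), Pit1dw/dw pool 1 (10.22 and 9.95) and Prop1df/df pool 5 (10.13 and 10.11). None of these pools is high in Prph, and neither gene passed in any comparison. The match was noticed in these 15 pools and was not tested.

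The members lie on 12 chromosomes by the RefSeq order, 8 of them on chromosome 2, and several are neighbours. Scn1a, Scn9a and Scn7a follow each other on chromosome 2, as do Scn2b and Scn4b, and Scn10a and Scn11a, on chromosome 9. All 7 of these genes were highest in pool 3 of Prop1df/df and Pit1+/+. So were most sodium channel genes wherever they lie, 10 of 11 in Prop1df/df and 9 of 11 in Pit1+/+. Scn3a, beside Scn2a on chromosome 2, was highest in pool 5 of both groups. A link between position and pool was not tested.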
